A study of Mus musculus with 6 samples.

Results

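The genes for voltage-gated calcium and sodium channels, with their auxiliary subunits, were described in the brains of mice fed PLDP and of control mice. They were taken by symbol as every Cacna1, Cacna2d, Cacnb and Scn subunit gene in GENCODE M21, which gave 32 genes (18 for calcium channels and 14 for sodium channels) of the 60354 features in the deposited tables. All 32 were found there, 30 had at least 1 count in every mouse, and 28 passed the filter on low counts and were tested. PLDP is a digest of porcine liver made with a protease, with dextrin added as an excipient. For 16 weeks, PLDP made up 20% of the modified AIN-93M diet of the PLDP mice. The controls received modified AIN-93M with 0% PLDP, matched to it in total calories. The PLDP diet also held less casein and soybean oil and more cystine and α-cornstarch, so PLDP and these differences cannot be told apart. All mice were C57BL/6NCrSlc males that were 16 weeks old when feeding began. All had gone through a series of behavioral tests, during which PLDP was not fed, and total RNA was extracted from whole brain on the day after the tests. Stranded mRNA libraries were sequenced for 3 mice of each diet, numbered 2, 5 and 10 among the controls and 17, 22 and 26 among those fed PLDP, and each mouse was 1 replicate.

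Voltage-gated calcium channels open when the membrane is depolarized and let calcium into the neuron, where it triggers transmitter release, shapes firing and signals to the nucleus. Each channel has 1 pore subunit from a Cacna1 gene, and most of them also carry an α2δ subunit and a β subunit that bring the pore to the surface and set its gating. Voltage-gated sodium channels, with a pore from an Scn pore gene and auxiliary β subunits, start and carry the action potential from the axon initial segment.

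Libraries held between 18797061 and 23938729 counts, with medians of 20861469 in controls and 21481847 in the PLDP mice, and mitochondrial genes took between 2.53% and 2.80% of them. The channel genes together took between 0.368% and 0.384% of the counts of a mouse. Values are given as CPM, the counts of a gene per 1000000 counts of the library after TMM scaling by edgeR. Genes with an unadjusted p under 0.05 were called, from edgeR's quasi-likelihood test over 18580 features, and the Benjamini-Hochberg adjusted p over all of them is given beside it. In bulk tissue, fewer cells of a type and less RNA per cell cannot be told apart.

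PLDP 17 stood apart from the other PLDP mice by exon length, with long genes lower and short genes higher. Of the channel genes tested, 19 have 8 kb or more of exon. Over the 2661 features of that length at 1 CPM or more, the median log2 deviation was -0.05 in PLDP 17, 0.04 in PLDP 22 and 0.03 in PLDP 26, and for the 19 channel genes it was -0.06, 0.08 and 0.03. Over the 3098 features under 2 kb it was 0.07, -0.03 and -0.02.

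**Figure D1:**
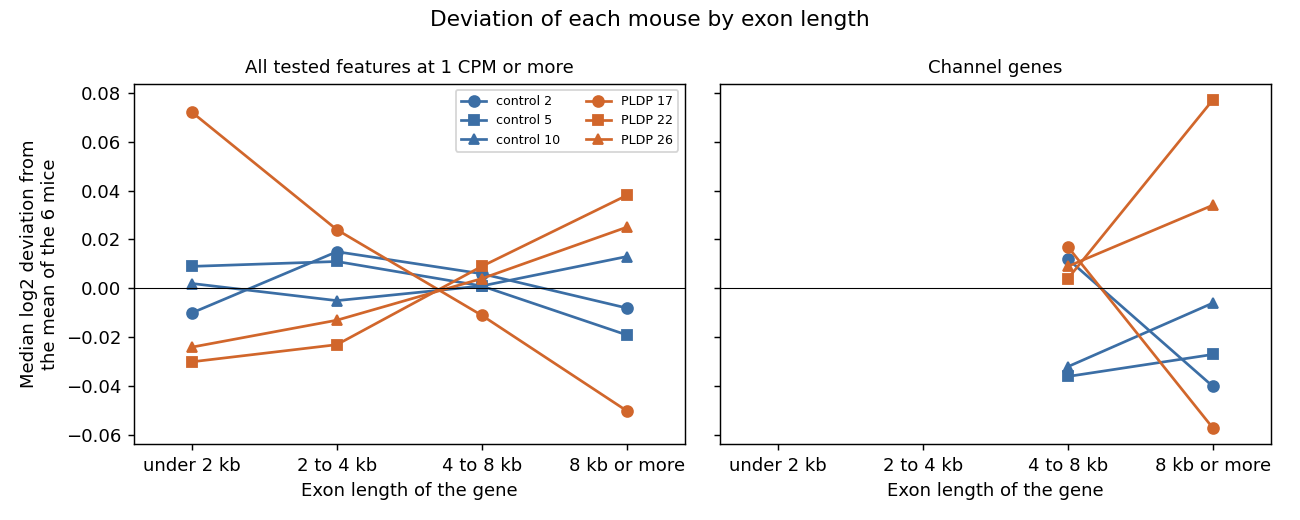
The median log2 deviation of each mouse from the mean of the 6 mice is plotted by exon length, for all tested features at 1 CPM or more (left) and for the channel genes (right, length classes with more than 1 gene). PLDP 17 goes from 0.07 under 2 kb to -0.05 at 8 kb or more among all features, and PLDP 22 from -0.03 to 0.04.

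Of the 28 tested channel genes, 1 was called higher in the PLDP mice (Cacna1h) and 1 was called lower (Scn4b). Over all tested features, 4.91% were called higher, 3.69% lower and 8.60% in either direction, so that the share of channel genes called (7.14%) was close to that of all features. No channel gene had an adjusted p under 0.05 with edgeR (0 of 28, where 0.0323% of all features did), with 2 at an unadjusted p under 0.05. DESeq2 also gave 0 with an adjusted p under 0.05 and called 1 at an unadjusted p under 0.05, where it called 4.98% of all features. The smallest adjusted p of a channel gene in edgeR's test was 0.399. The log2 fold change (PLDP over control) was positive in 19 channel genes and negative in 9, with a median of 0.04 (-0.0006 over all tested features). The median size of the change, regardless of sign, was 0.05 for the channel genes at 20 CPM or more and 0.05 for the 8616 features at that level. With a correction for exon length, 4 channel genes were called higher (Cacna1a, Cacna1h, Cacnb1 and Scn2b) and 2 lower (Scn1a and Scn4b), where 5.62% of all features were called higher and 4.29% lower, and the median log2 fold change of the channel genes was 0.02.

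**Figure D2:**
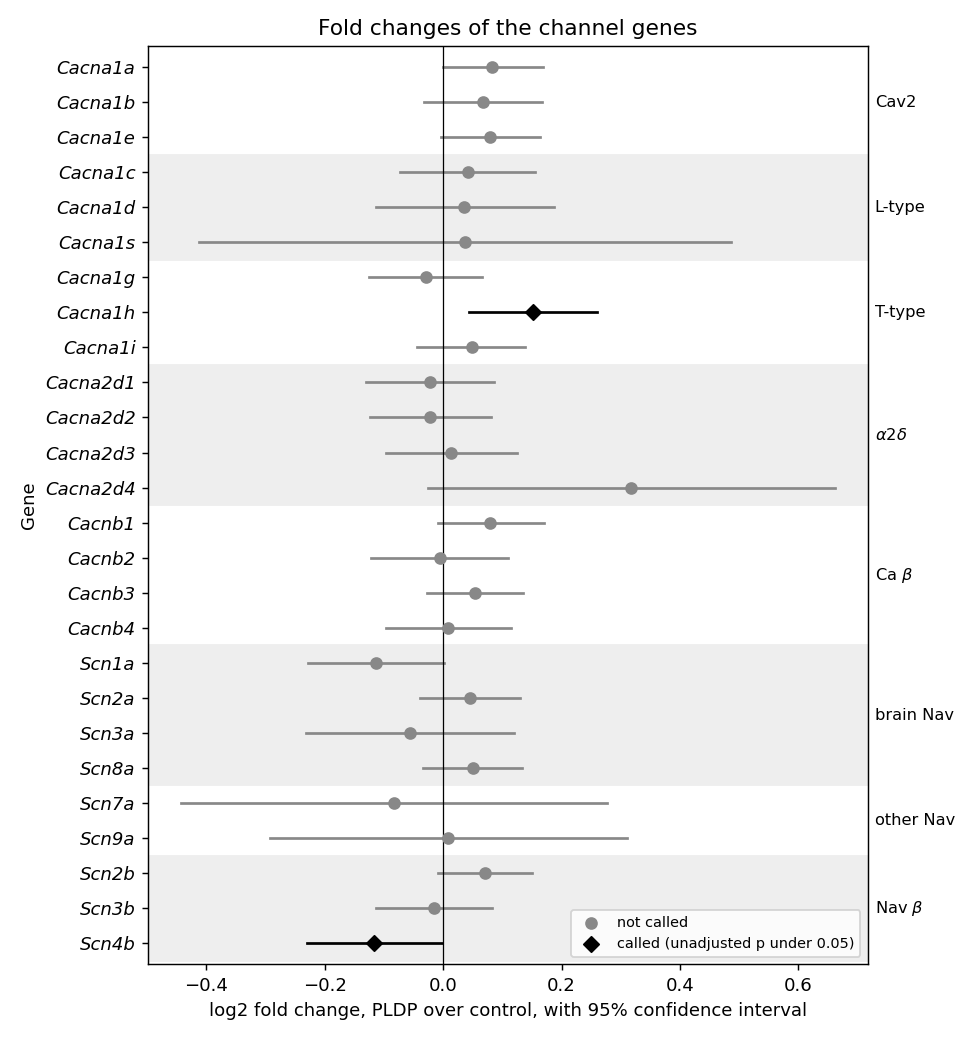
The log2 fold change of 26 of the 28 tested channel genes (horizontal axis, PLDP over control) is plotted with its 95% confidence interval from edgeR's fit, and genes are grouped by subunit. The intervals of Cacna1h and Scn4b (black diamonds) lie on one side of 0, and those of the genes at 20 CPM or more stay between -0.23 and 0.26.

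The precision was high for most of these genes. In the 23 genes at 20 CPM or more, the median standard error of the log2 fold change was 0.05, and the 95% confidence intervals reached from -0.23 (Scn3a) to 0.26 (Cacna1h). In the 5 tested genes under 20 CPM, such as Cacna1s, Cacna2d4 and Scn7a, the standard errors were between 0.11 and 0.21.

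Levels differed between the channel genes far more than between the diets. Exon length was taken as the union of all annotated exons of a gene in GENCODE M21, not as the length of an expressed transcript. Per kb of exon, the sodium channel β gene Scn2b was at 62.1 CPM per kb. Cacnb3 came next to it at 52.7 CPM per kb and Scn4b at 35.2. Among the pores, Cacna1a (19.6 CPM per kb), Scn2a (18.95), Scn8a (16.5), Cacna1g (14.7) and Scn1a (14.5) led. In this order the ranges of Cacna1a and Scn2a overlapped, as did those of Cacna1g and Scn1a, whereas those of Scn8a and Cacna1g did not. Among all 31 pairs of neighbors in the order of the 32 genes, 13 had overlapping ranges over the 6 mice. Some orders depend on the exon length. By mean CPM over the 6 mice, Cacna1c (85.7) was above Cacna1d (70.6), Cacna1e (229.9) above Cacna1a (223.8) and Scn8a (259.8) above Scn2a (241.2).

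**Figure D3:**
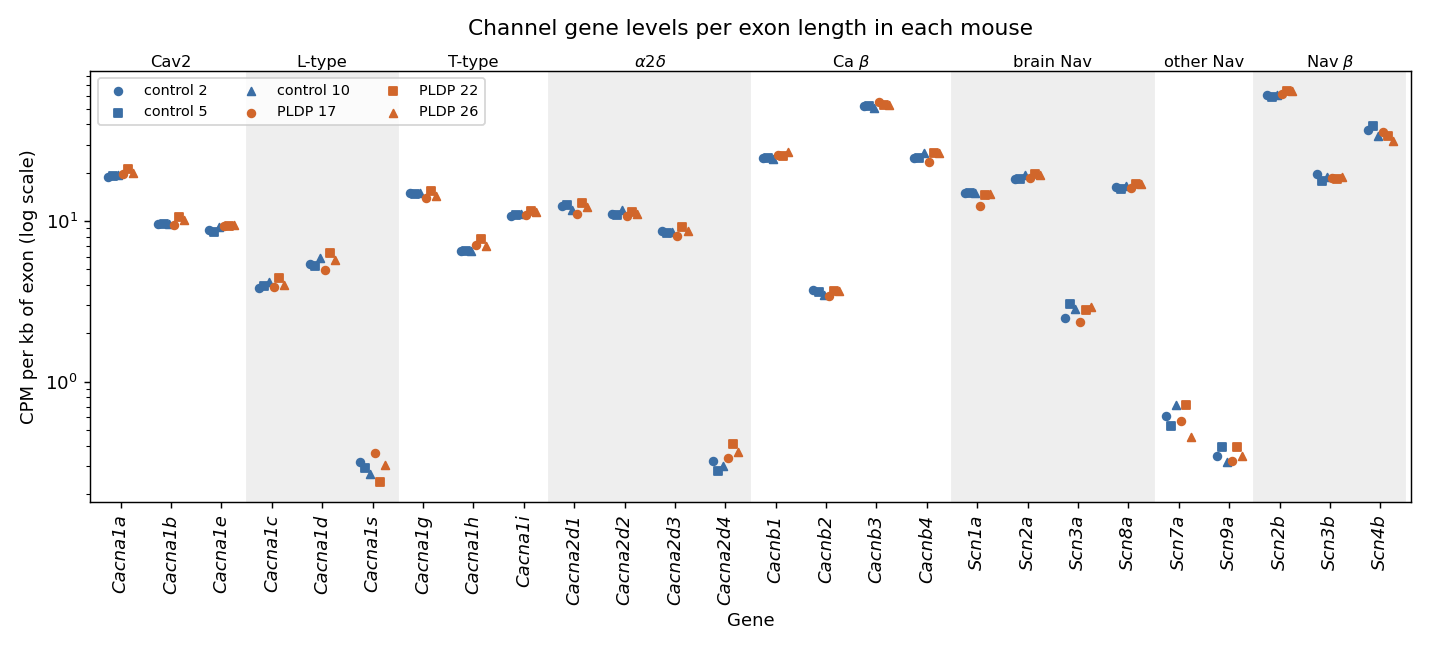
Levels of 26 of the 28 tested channel genes are plotted in each mouse as CPM per kb of exon (log axis), grouped by subunit, with control mice in blue and PLDP mice in orange. Levels run from 62.1 CPM per kb for Scn2b to 0.295 for Cacna1s, and the 6 mice lie close together for all but the lowest genes.

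The 3 Cav2 pore genes, whose channels release transmitter at nerve terminals, all had positive fold changes, and none was called. Cacna1a, the Cav2.1 (P/Q-type) pore at chr8:84388440-84640246 (GRCm38, + strand), is the best expressed of them per kb of exon. It had 215 CPM in control mouse 2, 217 in control 5 and 219.8 in control 10, and 224 in PLDP mouse 17, 240.1 in PLDP 22 and 227 in PLDP 26. All PLDP mice lay above all control mice, and the log2 fold change was 0.08 with a standard error of 0.04 (adjusted p = 0.588, edgeR). Cacna1e, the Cav2.3 (R-type) pore, had 222, 217 and 231 CPM in controls and 234, 237 and 238 in the PLDP mice. The diets did not overlap for it either, although control 10 and PLDP 17 were close, and the log2 fold change was 0.08 with a standard error of 0.04 (adjusted p = 0.597, edgeR). Cacna1b, the Cav2.2 (N-type) pore, had 95.6, 96.1 and 95.4 CPM in controls and 94.6, 105 and 101 in the PLDP mice, so that PLDP 17 was the lowest of all mice (log2 fold change 0.07, adjusted p = 0.74, edgeR). Summed over the 3 genes, the Cav2 pores had 533, 530.5 and 547 CPM in controls and 552.5, 582 and 566 in the PLDP mice. These sums did not overlap between the diets, the only family of the 8 for which this held. The sign of all 3 genes was positive in each of the 9 other settings and 6 fits without a mouse. Cacna1a was called in 3 of the 9 other settings (upper-quartile factors, limma voom and exon length correction) and without PLDP 17. Without PLDP 22 the log2 fold change was 0.05 for Cacna1a and 0.029 for Cacna1b, and neither was called. Cacna1e was called in 2 (upper-quartile factors and limma voom), without control 10 and without PLDP 17, and its log2 fold change was 0.04 with the exon length correction.

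None of the 3 tested L-type pore genes was called, and the diets overlapped for each of them. Cacna1d, the Cav1.3 pore, leads this family per exon length, and Cacna1c, the Cav1.2 pore, follows. Both channels open in the soma and dendrites and pass calcium signals to the nucleus. Cacna1d had 68.1, 66.6 and 74.7 CPM in controls and 62.5, 79.5 and 72.5 in the PLDP mice. PLDP 17 was the lowest mouse and PLDP 22 the highest, and the log2 fold change was 0.04 with an interval from -0.11 to 0.19 (adjusted p = 0.934, edgeR). Cacna1c ranged from 81.5 to 93.7 CPM with overlapping diets (log2 fold change 0.04, adjusted p = 0.884, edgeR). Cacna1s, the skeletal muscle pore Cav1.1, was near 2 CPM (between 1.55 and 2.37), with a 95% confidence interval of the log2 fold change from -0.41 to 0.49. Exon bases of Cacna1s overlap Gm37759 on the opposite strand over 1309 bases, and those of Cacna1d overlap Chdh over 589. The strand setting of the counting is not given, and the part of these overlaps in the values was not tested. Cacna1f, the retinal pore Cav1.4, had between 2 and 9 counts in a mouse and was not tested. The 4 skeletal muscle markers found summed to between 2.40 and 2.55 CPM in controls and between 2.34 and 3.095 in the PLDP mice, and 1 of the 2 that were tested was called higher (Ttn, between 0.920 and 1.201 CPM in controls and between 1.49 and 1.71 in the PLDP mice), while Ckm was at most 0.0906 CPM. The 6 photoreceptor and pineal markers summed to between 3.15 and 3.80 CPM in controls and between 3.25 and 3.63 in the PLDP mice, and 0 of the 3 tested were called. Of these, Sag was between 1.39 and 1.72 CPM and Crx at most 0.136. The part of these markers in the values of Cacna1s and Cacna1f was not tested.

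Among the T-type pore genes, whose channels open near rest and support burst firing, Cacna1h was called higher in the PLDP mice and the other 2 were not called. Cacna1h, the Cav3.2 pore at chr17:25374285-25433783 (GRCm38, - strand), had 64.0 CPM in control mouse 2, 63.6 in control 5 and 64.1 in control 10. In the PLDP mice it had 69.0 CPM in mouse 17, 75.4 in mouse 22 and 68.3 in mouse 26. All PLDP mice were above all control mice, which lay within 1 CPM of each other, and the means were 63.9 ± 0.224 and 70.9 ± 3.95 CPM (SD over 3 mice of each diet). The log2 fold change was 0.15 (standard error 0.05, 95% confidence interval 0.04 to 0.26, a rise of 11.1%, adjusted p = 0.399, edgeR). It was called in each of the 9 other settings, and without PLDP 22 the log2 fold change was 0.10 and it was not called. Exon bases of Cacna1h overlap those of Tpsg1 on the opposite strand over 158 bases, and whether reads were counted by strand is not given in the sources used here.

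Cacna1g, the Cav3.1 pore that is best expressed per kb of exon in this family and known for thalamic bursting, had 151, 149 and 151 CPM in controls and 140.4, 156 and 145 in the PLDP mice. The diets overlapped, with PLDP 17 lowest and PLDP 22 highest, and the log2 fold change was -0.03 (interval -0.13 to 0.07, adjusted p = 0.908, edgeR). Cacna1i, the Cav3.3 pore, ranged from 106 to 114 CPM (log2 fold change 0.05, adjusted p = 0.81, edgeR). Taken as a share of the 3 T-type genes per exon length, which does not depend on library scaling, Cacna1h was 20.3% ± 0.111 in controls and 22.0% ± 0.485 in the PLDP mice (SD over 3 mice of each diet). The share of Cacna1g was 45.9% ± 0.336 and 43.9% ± 0.517. Neither share overlapped between the diets. The shares of a family add up to the whole in each mouse, so a higher share of Cacna1h by itself lowers the others. Of the 32 such shares computed within the 8 families, 6 did not overlap, and no test was made of them.

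**Figure D4:**
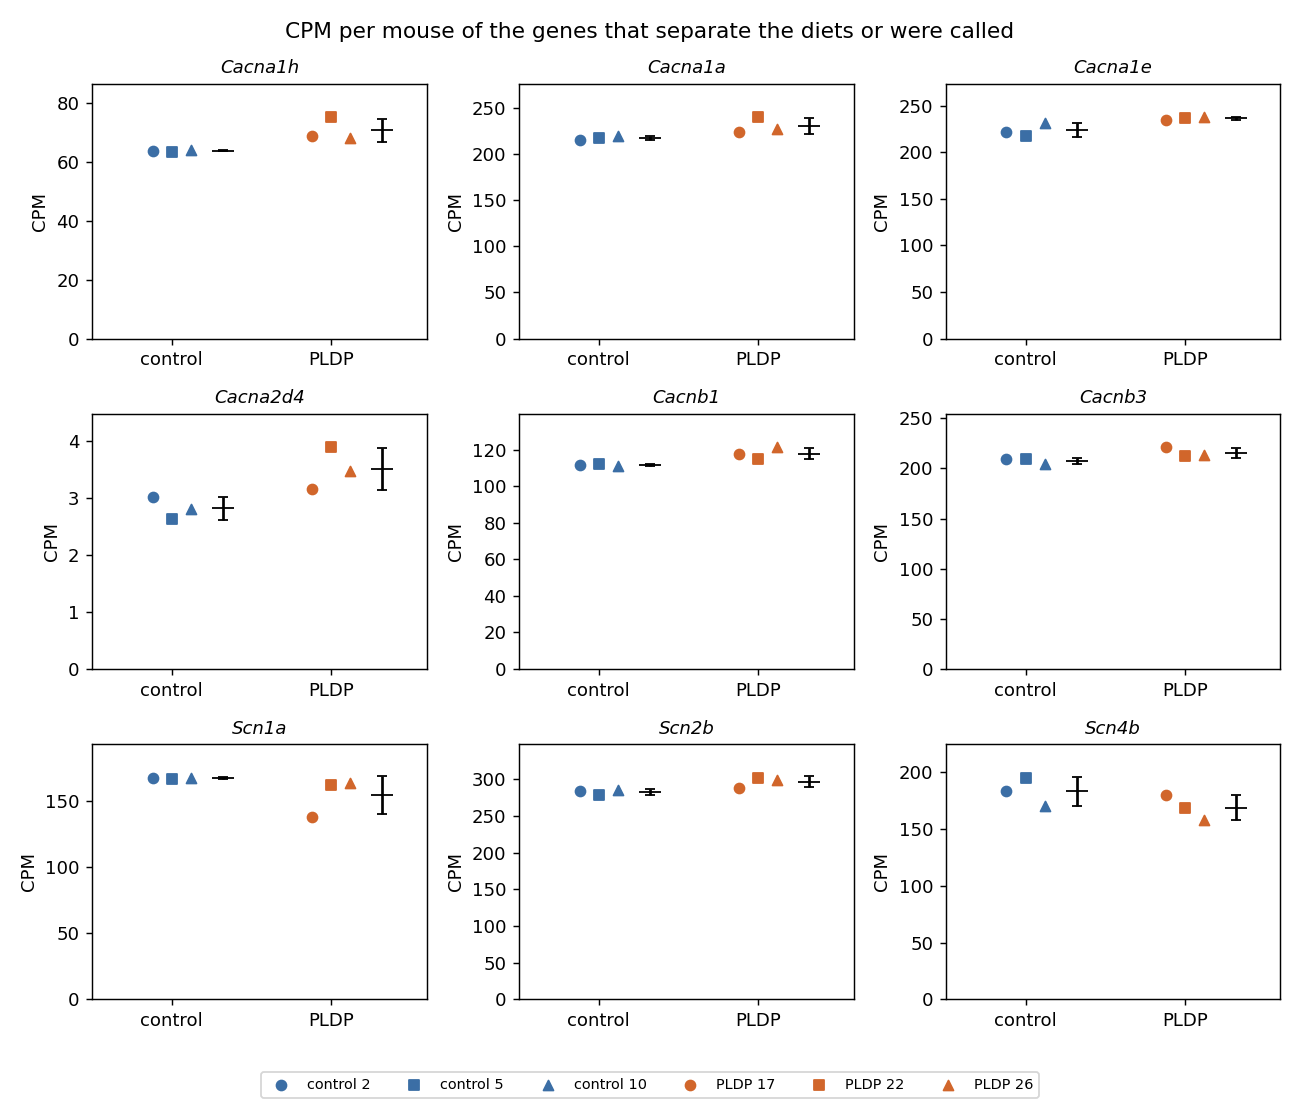
CPM (vertical axes from 0) is shown for each mouse for the 8 tested genes whose values do not overlap between the diets and for Scn4b, with the mean and SD of the 3 mice of each diet to the right of the points. Cacna1h goes from 63.9 to 70.9 CPM, and the low PLDP point of Scn1a is PLDP 17 at 138 CPM.

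The α2δ genes, whose proteins carry the pore to the surface, were not called. Cacna2d1 ranged from 138 to 161 CPM, Cacna2d2 from 85.2 to 93.9 and Cacna2d3 from 70.1 to 79.8, with log2 fold changes between -0.02 and 0.01, and none was called. Cacna2d4, known from the retina, had the largest log2 fold change of the 4 and the lowest level, with between 58 and 93 counts in a mouse. It had 3.03, 2.63 and 2.81 CPM in controls and 3.16, 3.89 and 3.47 in the PLDP mice. The diets did not overlap, but PLDP 17 and control 2 were close, and the log2 fold change of 0.32 had a standard error of 0.16 and an interval from -0.03 to 0.66 (adjusted p = 0.615, edgeR).

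Of the 4 calcium channel β genes, Cacnb1 and Cacnb3 separated the diets and Cacnb2 and Cacnb4 did not. Cacnb1, the β1 gene at chr11:98001508-98023034 (GRCm38, - strand), had 112, 112 and 111 CPM in controls and 118, 115 and 121 in the PLDP mice. The log2 fold change was 0.08 with a standard error of 0.04 (adjusted p = 0.627, edgeR). Cacnb3, the β3 gene and the best expressed of the 4 per exon length, had 209, 209 and 204 CPM in controls and 221, 212 and 213 in the PLDP mice. Its PLDP mice were all higher, by 0.05 on the log2 scale (adjusted p = 0.744, edgeR), and PLDP 17 was the highest. Cacnb4, whose loss causes the ataxia of lethargic mice, ranged from 209.9 to 239 CPM and PLDP 17 was its lowest mouse (log2 fold change 0.01, adjusted p = 0.979, edgeR). Exon bases of Cacnb4 overlap A430018G15Rik on the opposite strand over 1433 bases. Cacnb2 ranged from 45.5 to 49.5 CPM (log2 fold change -0.01, adjusted p = 0.986, edgeR).

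The 4 brain sodium channel pores did not move together, and none was called. Scn2a (Nav1.2), found in excitatory neurons, leads them per exon length and had 234, 233 and 246 CPM in controls and 238, 250.3 and 247 in the PLDP mice. Its diets overlapped, with a log2 fold change of 0.05 (interval -0.04 to 0.13, adjusted p = 0.8, edgeR). Scn8a (Nav1.6), the main channel of initial segments and nodes in the adult, ranged from 249 to 270.3 CPM (log2 fold change 0.05, adjusted p = 0.771, edgeR). Scn3a (Nav1.3), mainly an embryonic channel, ranged from 29.3 to 38.1 CPM with overlapping diets (log2 fold change -0.06, adjusted p = 0.903, edgeR).

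Scn1a (Nav1.1), the sodium channel of fast-spiking interneurons at chr2:66270778-66440840 (GRCm38, - strand), was the only channel gene with all PLDP mice below all control mice. It had 168 CPM in control mouse 2, 167 in control 5 and 168 in control 10, and 138 in PLDP mouse 17, 163 in PLDP 22 and 164 in PLDP 26. PLDP 17 was far below the other mice, while PLDP 22 and 26 lay just under the control mice. The log2 fold change was -0.11 (standard error 0.05, 95% confidence interval -0.23 to 0.001, adjusted p = 0.583, edgeR). It was not called here but was called in 5 of the 9 other settings (upper-quartile factors, library size only, no filter, limma voom and exon length correction). Of the 6 fits without a mouse it was called in 2, without PLDP 22 and without PLDP 26. Without PLDP 17 the log2 fold change was -0.04, and it was not called. The ratio of Scn1a to Scn8a within a mouse was 0.651, 0.670 and 0.646 in controls and 0.543, 0.602 and 0.610 in the PLDP mice. As a share of the 4 brain pores per exon length, Scn1a was 28.5% ± 0.410 in controls and 26.4% ± 1.19 in the PLDP mice (SD over 3 mice of each diet). The summed CPM of 5 interneuron markers, none of them called, was 974, 976 and 997 in controls and 918, 972 and 980.4 in the PLDP mice. The sum was lowest in PLDP 17, as were Gad1 (428 CPM, and between 483 and 507 in the other mice) and Gad2, which make up most of it. Pvalb, the marker of fast-spiking interneurons, was highest in PLDP 17, at 186 CPM against 149 in PLDP 22, 150.3 in PLDP 26 and between 172 and 175 in controls, and Sst was highest in PLDP 17 as well. The part of these markers in the values of Scn1a was not tested.

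The other sodium channel pores had low counts, and 3 of them fell below the filter. Scn7a (the sodium sensor Nax) was between 3.31 and 5.28 CPM, and Scn9a (Nav1.7), a channel of sensory neurons, between 4.02 and 5.02. Both had overlapping diets, and neither was called. Scn10a (Nav1.8), a channel of sensory neurons, had between 5 and 13 counts in a mouse, and Scn11a (Nav1.9), also of sensory neurons, between 0 and 8. Scn4a (Nav1.4), the skeletal muscle channel, had between 0 and 3 counts. A count of 0 allows up to 3 counts, which is 0.126 CPM for Scn4a in PLDP 22 and 0.160 CPM for Scn11a in PLDP 26. These 3 genes were not tested. Of the pores, Scn1a, Scn2a, Scn3a, Scn7a and Scn9a lie together on chromosome 2 over 1327797 bases, and their log2 fold changes ran from -0.11 (Scn1a) to 0.05 (Scn2a). The 5 markers of peripheral sensory neurons summed to between 9.88 and 12.5 CPM in controls and between 7.995 and 11.3 in the PLDP mice, and 1 of the 3 tested was called lower (Prph, between 5.86 and 9.01 CPM in controls and between 3.77 and 7.43 in the PLDP mice). Among them Mrgprd was at 0 in all mice, and Trpv1 was at most 0.232 CPM. The part of these markers in the values of the low sodium channel pores was not tested.

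The sodium channel β genes split in direction, with a positive fold change for Scn2b and negative ones for Scn3b and Scn4b. Scn4b (chr9:45138395-45154152, GRCm38, + strand), which supports resurgent sodium current and is known from Purkinje cells and striatum, was called lower in the PLDP mice. It had 183 CPM in control mouse 2, 195 in control 5 and 169.8 in control 10, and 179.5 in PLDP mouse 17, 168 in PLDP 22 and 158 in PLDP 26. The diets overlapped, because control 10 was below PLDP 17, and the means were 183 ± 12.5 and 169 ± 10.98 CPM (SD over 3 mice of each diet). The log2 fold change was -0.12 (standard error 0.05, 95% confidence interval -0.23 to -0.002, adjusted p = 0.568, edgeR). It was called in 6 of the 9 other settings, but not with DESeq2, edgeR's likelihood ratio test or upper-quartile factors. Of the 6 fits without a mouse it was called in 2, without control 10 (log2 fold change -0.167) and without PLDP 17 (-0.163). It was not called without control 2 (-0.115), control 5 (-0.067), PLDP 22 (-0.117) or PLDP 26 (-0.071).

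Scn2b lies 8324 bases from Scn4b on the same strand of chromosome 9 and had a fold change of the opposite sign. It had 284, 278 and 286 CPM in controls and 288, 302 and 299 in the PLDP mice. All PLDP mice were higher (log2 fold change 0.07, standard error 0.04, adjusted p = 0.631, edgeR). The ratio of Scn4b to Scn2b was 0.647, 0.701 and 0.595 in controls and 0.623, 0.558 and 0.527 in the PLDP mice, with PLDP 17 above control 10. Scn3b ranged from 97.5 to 107 CPM (log2 fold change -0.02, adjusted p = 0.96, edgeR).

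Markers of the caudal hindbrain moved with the diet in the same libraries. Of 12 such markers (among them Hox genes, Slc6a5 and Glra1), 11 were tested, 10 were called lower and 0 were called higher in the PLDP mice by edgeR's test. Their summed CPM was 162, 149 and 149 in controls and 117, 77.8 and 109 in the PLDP mice. Among the other lists, the summed markers of Purkinje cells ranged from 399 to 485 CPM in controls and from 440.4 to 493 in the PLDP mice, and those of the striatum from 561 to 607.5 and from 558 to 598. In these lists 0 of 4 and 0 of 7 genes were called. Of 4 choroid plexus markers 2 were called lower, of 7 markers of cortical and hippocampal projection neurons 3 were called higher, and of 5 neuronal markers 0 were called. The part of these markers in the values of Scn4b, Scn1a and Cacna1h was not tested.

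The diets did not overlap for 8 of the 28 tested channel genes (28.6%). In 7 of them the PLDP mice were higher (Cacna1a, Cacna1e, Cacna1h, Cacna2d4, Cacnb1, Cacnb3 and Scn2b; 25.0%), where 7.29% of all tested features were, and in 1 they were lower (Scn1a; 3.57%), where 6.90% were. Among features at 20 CPM or more, 16.3% did not overlap in either direction. Each had a log2 fold change of 0.15 or less except Cacna2d4. The count in the higher direction was 7 or 8 under the other scalings.

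PLDP 22 and PLDP 17 held many of the extremes. PLDP 22 was the highest of the 6 mice in 16 of the 28 channel genes (57.1%, where it was highest in 16.2% of all tested features), and PLDP 17 was the lowest in 10 (35.7%, against 21%). The median log2 deviation of the channel genes from the mean of the 6 mice was 0.06 in PLDP 22, 0.02 in PLDP 26 and -0.04 in PLDP 17, and between -0.03 and -0.01 in the control mice. Without PLDP 22, the median log2 fold change of the channel genes was -0.01 instead of 0.04. Without PLDP 17, 8 channel genes were called higher (Cacna1a, Cacna1b, Cacna1d, Cacna1e, Cacna1h, Cacna2d4, Scn2b and Scn8a) and 1 lower (Scn4b), where 6.86% of all features tested in that fit were called higher and 5.69% lower.

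**Figure D5:**
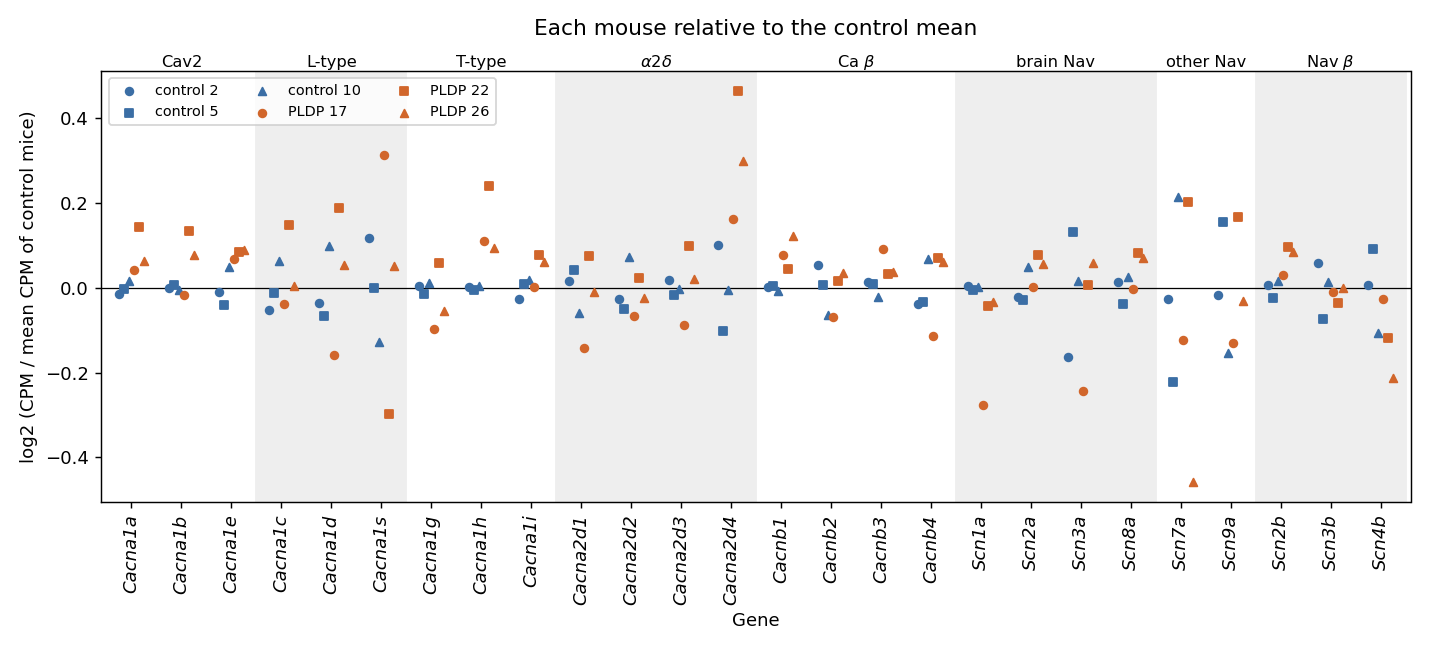
The CPM of each mouse relative to the mean of the control mice is plotted on a log2 scale for 26 of the 28 tested channel genes, with control mice in blue and PLDP mice in orange. Of the plotted genes, PLDP 22 (orange squares) is the highest mouse in 15 and PLDP 17 (orange circles) the lowest in 10.

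Of the genes around these channels, 39 of 42 listed were tested, and 7 were called higher and 2 lower, with a median log2 fold change of 0.04. The share called was 23.1%, where 8.60% of all tested features and 10.2% of the features at 20 CPM or more were called. The lists were chosen with earlier results of these data known, so this share is a description and not a test. The 9 calls became 4 without control 2 or control 10 and 5 without PLDP 22 or PLDP 26. The share of all features called in those fits was not computed. The calcium channel gamma family, whose members also serve as AMPA receptor partners, had 3 of 7 tested genes called higher and 1 lower. Cacng2 (stargazin) had 119, 119 and 121 CPM in controls and 127, 129 and 138 in the PLDP mice (log2 fold change 0.14, adjusted p = 0.367, edgeR). Cacng3 (0.15, adjusted p = 0.449) and Cacng8 (0.12, adjusted p = 0.56) were called higher and Cacng5 (-0.14, adjusted p = 0.568) was called lower, each value being a log2 fold change by edgeR. Only Cacng2 and Cacng3 of these separated the diets.

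Of 11 calcium channel partners, Rims1, a presynaptic scaffold that tethers channels to vesicles, was called higher (141 to 151 CPM in controls and 151 to 169.9 in the PLDP mice, log2 fold change 0.12, adjusted p = 0.461, edgeR). Calm2, one of the calmodulin genes, was called lower (-0.09, adjusted p = 0.456, edgeR), whereas Calm3 (0.02) was not called. Of 10 tested sodium channel partners, Nedd4l, a ubiquitin ligase for channels (0.12, adjusted p = 0.448), and Nrcam, an adhesion molecule of the initial segment (0.08, adjusted p = 0.579), were called higher by edgeR's test. Ank3, which anchors sodium channels at the initial segment, was not called (0.05, adjusted p = 0.872, edgeR). Of the RNA regulators, the splicing factor Nova2 was called higher (93.5 to 99.1 CPM in controls and 100.2 to 110.3 in the PLDP mice, log2 fold change 0.16, adjusted p = 0.343, edgeR). None of the 4 sodium leak channel genes and none of the 3 tested RGK GTPases, which inhibit calcium channels, were called.

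Upstream sequence was examined for the channel genes with a start window in RefSeq's promoter table (GRCm38.p6, 250 bases before to 50 after the start). A window was found for 24 of the 32 genes, in 34 windows, and Cacna1a, Cacna1g, Cacna1h, Cacna2d4, Scn3a and Scn3b were among those without one. Bases before a RefSeq start and outside the gene's GENCODE M21 exons are shown for 3 genes whose values did not overlap between the diets, 1 lower and 2 higher, with matches to the GC box (GGGCGG) and the CCAAT box (CCAAT), on either strand, in capitals. The first is from Scn1a, at chr2:66440841-66441087 (- strand), which was lower in the PLDP mice. The second is from Scn2b, at chr9:45117626-45117781 (+ strand), and the third from Cacnb1, at chr11:98022635-98022877 (- strand), both higher. The Cacnb1 stretch lies inside the span of the gene in GENCODE M21, whereas the other 2 lie before it.
Scn1a: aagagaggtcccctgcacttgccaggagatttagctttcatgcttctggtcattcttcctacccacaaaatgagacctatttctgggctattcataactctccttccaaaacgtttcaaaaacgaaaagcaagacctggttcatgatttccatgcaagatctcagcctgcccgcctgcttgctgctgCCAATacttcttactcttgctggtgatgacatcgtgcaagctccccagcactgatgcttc
Scn2b: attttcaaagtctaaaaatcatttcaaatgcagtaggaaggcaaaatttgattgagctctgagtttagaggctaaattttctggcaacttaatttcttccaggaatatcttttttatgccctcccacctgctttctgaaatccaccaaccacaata
Cacnb1: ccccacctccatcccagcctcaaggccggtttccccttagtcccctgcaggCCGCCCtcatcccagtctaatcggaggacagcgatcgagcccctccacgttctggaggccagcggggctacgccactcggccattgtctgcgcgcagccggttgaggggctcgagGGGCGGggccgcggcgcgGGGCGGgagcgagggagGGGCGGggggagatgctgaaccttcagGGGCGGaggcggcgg
The Cacnb1 stretch holds 5 GC boxes and is 72.4% G or C, and the Scn1a stretch (47.4%) holds 1 CCAAT box and no GC box. The Scn2b stretch (35.3%) holds neither. A GC box was found in 41.2% of the windows of channel genes and in 35.7% of all 32851 windows, and a CCAAT box in 23.5% and 37.4%. The cyclic AMP response element (TGACGTCA) and the E-box (CACGTG) were found in 0 of the 34 windows and in 1.79% and 7.15% of all windows. These are matches of letters, described without a test.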

How the data were processed

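The authors deposited 1 table per mouse with whole-number read counts per gene, without normalization. The submitters' processing notes name cutadapt 2.9, HISAT2 2.2.0, featureCounts 2.6.0, DESeq2 1.6.3 and the builds GRCm38 and GRCh38, without roles. Strand setting and annotation release are not given in the sources used here. Symbols and positions came from GENCODE M21 (GRCm38), which holds 54777 of the 55034 Ensembl identifiers.

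Mice were grouped by their labels. The labels do not say whether mice shared a cage, so p-values measure the spread between these mice. Counts were filtered by filterByExpr (minimum count 10, minimum total count 15), scaled by TMM and tested in R 4.3.3 with edgeR 4.0.16 (glmQLFit, diet as the only term). With 3 mice against 3, an exact permutation test cannot give a two-sided p under 0.1. The alternatives were relative log expression, upper-quartile and library-size scaling, no filter, at least 10 counts in every mouse, DESeq2 1.42.0, edgeR's likelihood ratio test, limma 3.58.1 voom, exon length offsets (spline with 5 degrees of freedom) and leaving out each mouse. The edgeR fit and the exon length correction were run on simulated data. The planted changes were larger than any seen in the channel genes, and no trend with exon length was planted. The simulation therefore cannot show how the fits handle changes as small as those seen here, or such a trend. Tables and plots were made in Python 3.11.15 with pandas 2.3.3 and matplotlib 3.10.9. Deviations by exon length used a pseudocount of 0.5 CPM.

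A few genes enter the counts but are not reported here, and all other channel genes are named. Values per mouse are given for called genes, the pores best expressed per exon length and auxiliary genes that separated the diets. Other genes were chosen after their values were seen. Called pathway genes are named. The members, gene lists and rules were chosen with earlier results of these data known. Intervals cover the spread between mice, and the limit for a count of 0 covers counting error only.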

Additional observations from a re-analysis of the deposited data

How the results depend on the processing

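Some counts of calls moved with the processing, and the cause was not tested. Channel genes called higher, 1 in the report, numbered 3 with upper-quartile factors, 3 with limma voom and 4 with the exon length correction, and between 0 and 8 without 1 mouse. Channel genes called lower, also 1, numbered 2 with library size only, 2 with no filter, 2 with limma voom, 2 with the exon length correction, 0 with DESeq2 and 0 with edgeR's likelihood ratio test, and between 0 and 1 without 1 mouse. Other pathway genes called numbered between 4 and 9 without 1 mouse, with between 3 and 8 higher and between 0 and 2 lower. Those called lower numbered 1 with upper-quartile factors, 1 with DESeq2, 1 with edgeR's likelihood ratio test, 1 with limma voom and 1 with the exon length correction. The median log2 fold change of the channel genes was between -0.011 and 0.065 without 1 mouse, the negative value being without PLDP 22.

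Of 26 tested channel genes, 13 kept their sign in all 15 other fits and 15 were called in no fit. The signs of the other 13 changed when 1 mouse was left out, and none of those genes was called in the report. Over these 6 fits the log2 fold change was between -0.019 and 0.082 for Cacna1c, between -0.051 and 0.126 for Cacna1d, between -0.078 and 0.0048 for Cacna1g and between -0.126 and 0.193 for Cacna1s. It was between -0.077 and 0.034 for Cacna2d1, between -0.047 and 0.015 for Cacna2d2 and between -0.035 and 0.063 for Cacna2d3. For Cacnb2 it was between -0.037 and 0.024, and for Cacnb4 between -0.026 and 0.067. It was, for Scn3a, between -0.132 and 0.03, for Scn3b between -0.052 and 0.013, for Scn7a between -0.272 and 0.056 and for Scn9a between -0.086 and 0.095. With the exon length correction, Scn9a was at -0.0028. The tested genes under 20 CPM had standard errors between 0.11 and 0.21, and the effect of depth was not tested. No paired analysis was possible because the diets share no mouse numbers.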
